A study of Mus musculus with 6 samples.

Results

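The 10 genes described here encode RNA-binding proteins that select exons during muscle differentiation: Rbfox1, Rbfox2, Mbnl1, Mbnl2, Mbnl3, Celf1, Celf2, Rbm24, Rbm38 and Qk. They were taken by name from the deposited table through its NCBI gene numbers, and are 10 of the 17558 genes in it. All 10 passed the filter on low counts. RNA was sequenced from C2C12 cells, an immortalized mouse myoblast line, in 6 libraries that had all spent 48 h in low-serum medium with horse serum, insulin, transferrin and selenium, which starts fusion into myotubes. The 3 groups of 2 libraries each stably carried a scrambled hairpin (shScr, genotype label WT), a hairpin against the Pkm1 splice form of pyruvate kinase (shPkm1) or a hairpin against its Pkm2 splice form (shPkm2). The design asks how each hairpin changed the cells relative to shScr and to each other. The labels do not say whether the libraries of a group came from separate cultures, so p-values measure the spread between these libraries, which may be technical.

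Vertebrate muscle remodels its transcripts by alternative splicing as myoblasts become myotubes. Rbfox proteins bind UGCAUG, Mbnl proteins bind clusters of YGCY, Celf proteins bind GU-rich stretches, Rbm24 and Rbm38 are closely related single-domain proteins that bind GU-rich sites, and Quaking (Qk) binds ACUAAY. For each of them the side of the exon that is bound helps decide whether the exon is kept or skipped. Mbnl and Celf proteins act in opposite directions on many of the same exons, and the balance between them is known to shift as heart and skeletal muscle mature. Several of these genes are themselves alternatively spliced, which changes where the protein sits in the cell or how it acts.

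Libraries held between 18216896 and 19796036 estimated counts. The hairpin label was checked first: the Pkm1 transcript (NM_001253883.1) stood at 545.8 and 588.8 TPM in shScr, 242.7 and 218.2 in shPkm1 and 254.1 and 254.2 in the libraries labelled shPkm2. The Pkm2 transcript (NM_011099.3) stood at 1073 and 1517, 1278 and 1379, and 2700 and 2630 TPM, so the libraries labelled shPkm2 did not hold less of their target than shScr. Muscle differentiation markers were lower in both hairpin groups: the sum of 16 genes was 44765 and 31867 TPM in shScr, 15664 and 16764 in shPkm1 and 1126 and 1064 in shPkm2, and all 16 passed the test as lower in each of the 3 contrasts. Of 15 markers of other cell types, 11 to 13 were under 1 TPM in every library, Snap25 and Epcam were at 0, and the sum ran from 30.7 to 47.4 TPM in shScr, 42.8 to 43.03 in shPkm1 and 69.7 to 76.5 in shPkm2, most of it Tubb3 and Sox9. In such bulk samples, fewer differentiated cells and less RNA per cell cannot be told apart.

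The sequences shown first are alternative coding parts of Rbfox2 and Qk, whose curated transcripts are compared further on. A test of transcript usage, described there, called no curated transcript that carries them. Each line is the coding strand of the GRCm38 annotation (GENCODE), with the alternative part in capitals and 12 bases of the neighbouring coding exons in lower case. In Rbfox2, on the minus strand of chromosome 15, the tenth coding exon is either a 43-base exon (chr15:77091812-77091854), known as the muscle form, or a 40-base exon (chr15:77094451-77094490), known from brain and other tissues. In Qk, on the minus strand of chromosome 17, the coding sequence ends in 1 of 3 tails, which distinguish the nuclear Qk-5 protein from the mostly cytoplasmic Qk-6 and Qk-7. The forms were recognised by coding lengths of 1023 bases for Qk-5, 957 for Qk-6 and 975 for Qk-7. The Qk-5 tail is made of 2 exons (chr17:10213359-10213433 and chr17:10209618-10209631), the Qk-6 tail lies at chr17:10214172-10214194 and the Qk-7 tail at chr17:10215434-10215474.
Rbfox2 43-base exon: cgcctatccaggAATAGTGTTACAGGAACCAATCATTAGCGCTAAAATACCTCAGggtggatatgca
Rbfox2 40-base exon: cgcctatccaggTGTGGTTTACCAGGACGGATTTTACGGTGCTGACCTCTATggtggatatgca
Qk-5 tail: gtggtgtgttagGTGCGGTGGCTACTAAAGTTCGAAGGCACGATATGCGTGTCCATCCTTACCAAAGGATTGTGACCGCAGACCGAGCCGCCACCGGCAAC
Qk-6 tail: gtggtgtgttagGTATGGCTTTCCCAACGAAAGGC
Qk-7 tail: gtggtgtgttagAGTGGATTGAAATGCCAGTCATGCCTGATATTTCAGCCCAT

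The regulators did not move as a block. Rbfox1 and Rbm38 fell in both hairpin groups and Rbm24 fell in the libraries labelled shPkm2, all by several fold, while the 3 Mbnl genes rose in both groups. Rbfox2, Celf1, Celf2 and Qk differed from shScr by at most 1.61-fold. In shPkm1 against shScr, 3 of 10 passed edgeR's quasi-likelihood test (adjusted p under 0.05) as higher and 5 as lower; 63.1% of the 12643 genes tested did so, 31.8% as higher and 31.4% as lower. In shPkm2 against shScr it was again 3 higher and 5 lower, against 68.0% of all genes (33.9% higher and 34.2% lower). In shPkm2 against shPkm1, 1 was higher and 7 were lower, against 53.0% of all genes (25.7% higher and 27.3% lower). These shares are so high that a call alone sets no member apart. Of the 8 calls in the direct contrast, 4 were left without shPkm1 library 1 or shPkm2 library 2 and 5 without shPkm1 library 2; Rbfox2, Mbnl2, Celf2, Rbm38 and Qk each lost theirs without some single library. The 8 calls in shPkm1 against shScr became 5 without shPkm1 library 2. Changes of at least 2-fold were found for 5, 5 and 3 of the 10, against 22.8%, 28.9% and 19.4% of all genes. After scaling, the libraries of the groups compared did not overlap for 9, 8 and 9 of the 10. The same held for 80.96%, 83.91% and 79.77% of all genes, so separation of groups alone sets no member apart either. The contrasts with shScr share its libraries and are not independent. The split depends on the scale: on log2(TPM + 1) with limma it was 4 higher and 2 lower, 5 higher and 3 lower, and 2 higher and 3 lower. The median of all genes lay 0.31, 0.36 and 0.06 higher on that scale than on the scaled counts. The share of all genes called on that scale is not given here, so its splits are not set against a background. The genes whose calls differed between both scales were Rbfox2, Celf1, Celf2, Qk and, in the direct contrast, Mbnl2.

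**Figure D1:**
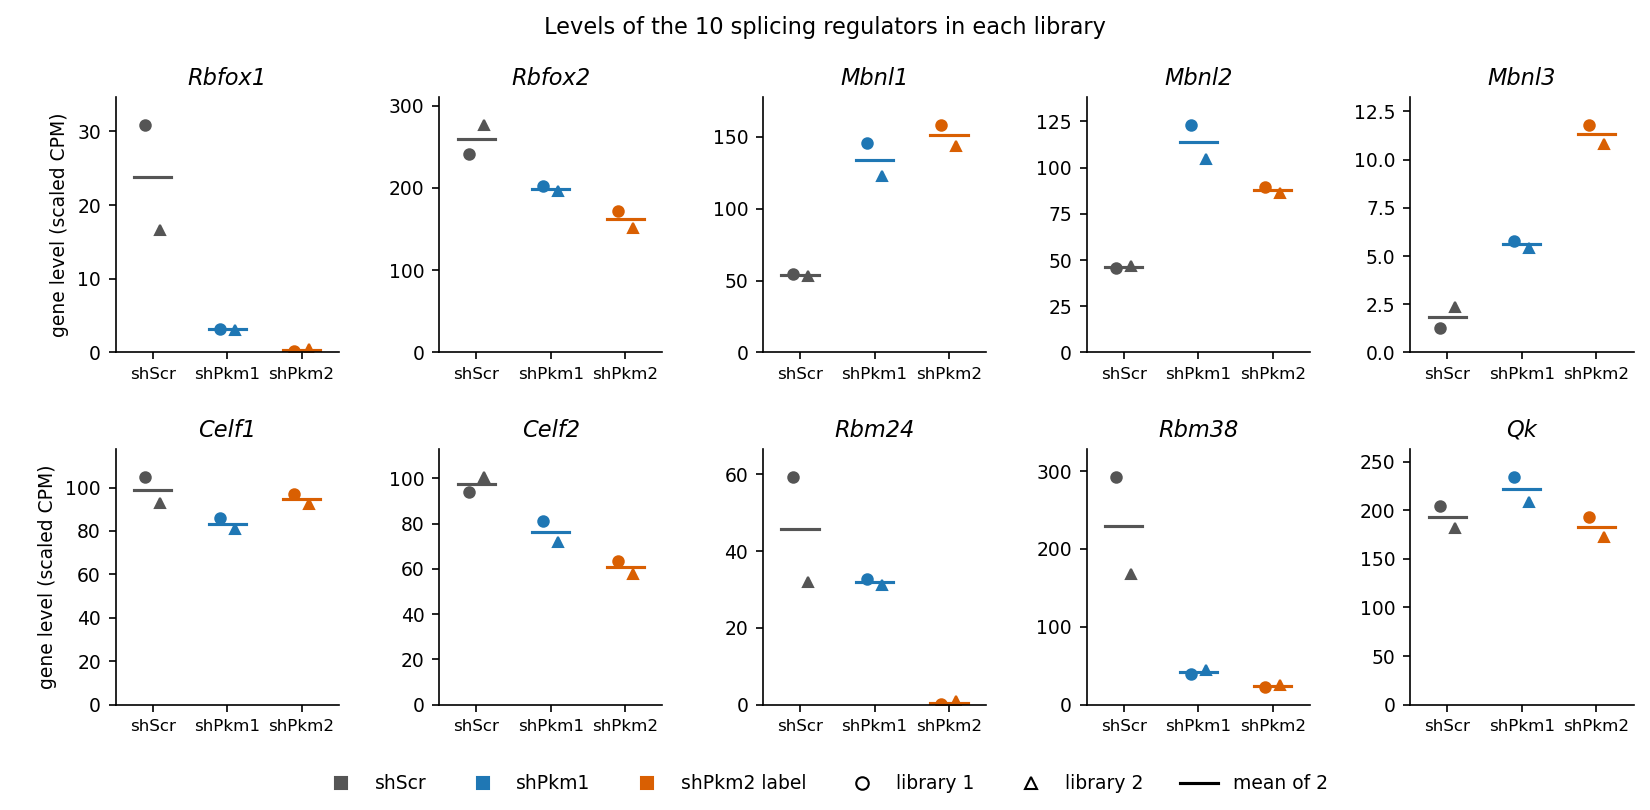
Level of each gene as scaled CPM (counts per unit of library size after trimmed-mean scaling, linear axis from 0) in the 3 groups; circles and triangles are libraries 1 and 2, bars are the mean of 2. Rbfox1, Rbm24 and Rbm38 were highest in shScr library 1, and the 3 Mbnl genes were lowest in shScr.

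**Figure D2:**
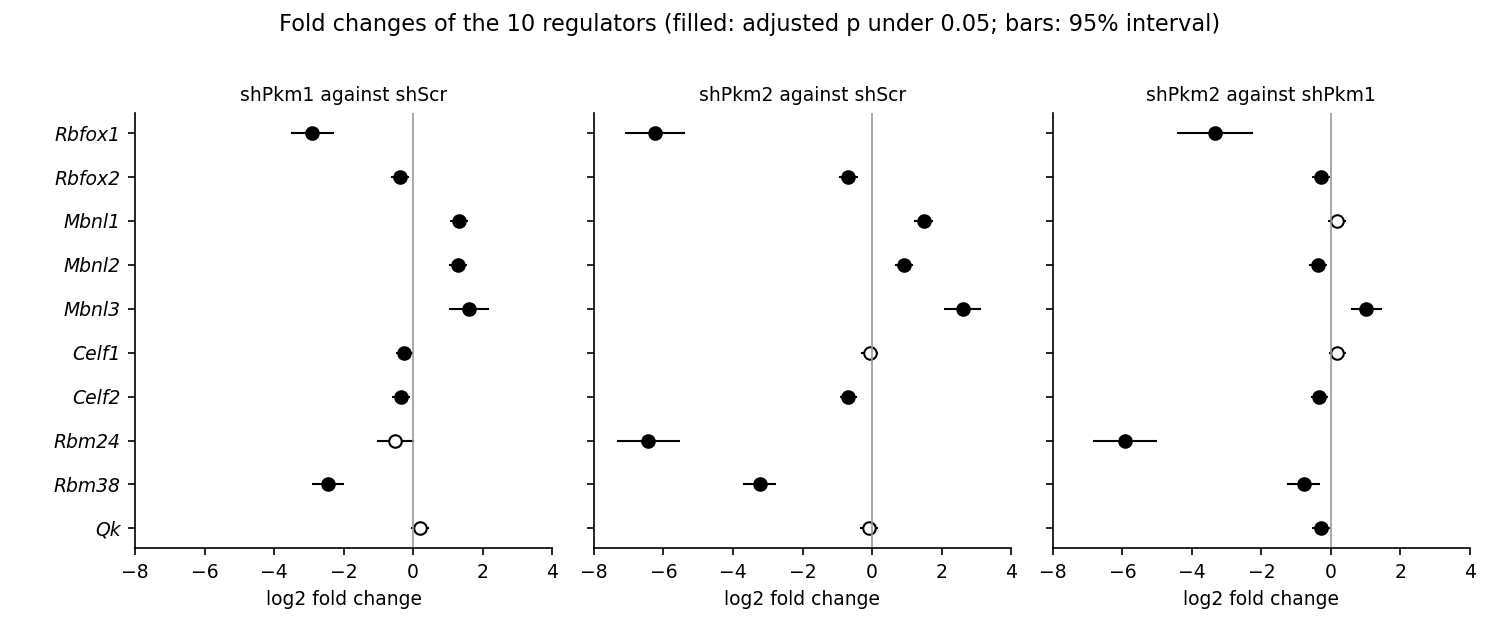
Log2 fold change (x axis) of each gene in the 3 contrasts, with 95% intervals from the edgeR fit; filled circles passed the adjusted p threshold of 0.05 and open circles did not. Rbfox1, Rbm24 and Rbm38 lie farthest to the left in shPkm2 against shScr, at -6.23, -6.43 and -3.23.

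The Rbfox family was represented by its muscle- and neuron-rich member Rbfox1 (chromosome 16, 5884793-7412480) and the widely expressed Rbfox2 (chromosome 15, 77078990-77308434). Rbfox1 held 488 and 294 counts in shScr, 61 and 61 in shPkm1 and 4 and 9 in shPkm2. The groups were fully separated, as they were for most genes in each contrast, and shScr library 1 was well above library 2. In scaled CPM this was 23.8 ± 10.1 (SD, n = 2) for shScr, 3.17 ± 0.12 for shPkm1 and 0.31 ± 0.17 for shPkm2. Rbfox1 was 7.47-fold lower in shPkm1 than in shScr (log2 fold change -2.90, SE 0.27, edgeR adjusted p = 1.19e-06) and 75.3-fold lower in shPkm2 (-6.23, SE 0.39, adjusted p = 1.23e-08). It was 10.1-fold lower in shPkm2 than in shPkm1 (-3.33, SE 0.50, adjusted p = 8.37e-05). Leaving out each library in turn gave -3.29 to -2.39, -6.92 to -5.72 and -4.03 to -2.87, and every one of these stayed past the threshold. The counts of 4 and 9 in shPkm2 limit the precision of its folds.

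Rbfox2 held 3813 and 4905 counts in shScr, 3794 and 3878 in shPkm1 and 3665 and 3175 in shPkm2. After scaling these were 241.7 and 277.1, 202.0 and 196.1, and 172.5 and 151.5 CPM, without overlap between groups. The test called it 1.30-fold lower in shPkm1 (log2 fold change -0.38, adjusted p = 0.00725) and 1.60-fold lower in shPkm2 (-0.68, adjusted p = 8.92e-05). On log2(TPM + 1), however, limma gave 0.03 for shPkm1, the other direction, and -0.17 for shPkm2 (adjusted p = 0.868 and 0.287). Less the median of all genes on that scale, these values were -0.29 and -0.54. On library totals the edgeR call in shPkm1 was lost (-0.19, adjusted p = 0.185). A count of its curated transcripts alone gave -0.15 and -0.48, neither of which passed, and leaving out either shPkm1 library ended the shPkm1 call. Between the hairpins, Rbfox2 was 1.23-fold lower in shPkm2 than in shPkm1 (-0.30, edgeR adjusted p = 0.0329). That call was lost on library totals (-0.17, adjusted p = 0.257) and with curated transcripts alone (-0.33, adjusted p = 0.215). It was also lost with limma on log2(TPM + 1) (-0.20, adjusted p = 0.257). Leaving out single libraries gave -0.40 to -0.21. Rbfox1 made up 16.0% and 8.30% of the summed Rbfox TPM in shScr, 2.22% and 2.43% in shPkm1 and 0.166% and 0.333% in shPkm2. The family total was 69.3 ± 6.5 TPM in shScr, 63.5 ± 4.3 in shPkm1 and 54.2 ± 8.7 in shPkm2 (SD, n = 2), so most of the Rbfox transcripts came from Rbfox2 throughout.

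Within Rbfox2 the share of the exons printed above lay apart between groups. Of the 35 Rbfox2 transcripts in the table, 2 curated ones hold the 43-base exon (NM_001110829.2 and NM_001286419.1) and 3 hold the 40-base exon (NM_001110828.2, NM_001110830.2 and NM_001286418.1). The 43-base exon took 71.1% and 62.3% of the TPM of these 5 transcripts in shScr, 45.5% and 49.3% in shPkm1 and 35.1% and 32.7% in shPkm2. The groups did not overlap, and shScr was highest. In TPM, transcripts with the 43-base exon stood at 14.2 and 18.6 in shScr, 13.2 and 13.4 in shPkm1 and 9.22 and 6.81 in shPkm2. Transcripts with the 40-base exon stood at 5.77 and 11.2, 15.8 and 13.8, and 17.1 and 14.0. The 5 transcripts made up 36.7% to 46.0% of Rbfox2 TPM; the exon content of the others was not used here. These shares were not tested themselves; an exact permutation of 2 against 2 libraries cannot go below p = 0.333.

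The transcript fit, run on 33433 transcripts, gave tests for single Rbfox2 rows. Both 43-base transcripts were lower in shPkm2 than in shScr: NM_001110829.2 went from 544 and 759 counts to 357 and 219 (log2 fold change -1.48, SE 0.27, adjusted p = 0.0257) and NM_001286419.1 from 581 and 705.5 to 302 and 286 (-1.43, SE 0.11, adjusted p = 0.00321). The call for the first was lost in 8 of its alternatives, among them each removal of a library other than shPkm2 library 1. NM_001110830.2, with the 40-base exon, went from 287 and 356 counts in shScr to 490 and 585 in shPkm1 and 645 and 496 in shPkm2, and did not pass in either contrast with edgeR. In shPkm2 against shScr it did pass on library totals (log2 fold change 0.82, adjusted p = 0.0406) and with limma on log2(TPM + 1) (0.80, adjusted p = 0.0431). NM_001110828.2 was uneven in shScr, at 174 and 536 counts, and stood at 583 and 520 in shPkm2. A test of transcript usage, which asks whether a row changed relative to the rest of its gene, called neither 43-base transcript (adjusted p = 0.793 and 0.788 in shPkm2 against shScr). It did call the predicted Rbfox2 transcript XM_006521574.2, which fell from 333 and 404 counts in shScr to 177 and 91 in shPkm1 and 27 and 0 in shPkm2 (adjusted p = 0.0187 in shPkm2 against shScr). That usage call was lost without shScr library 1 (adjusted p = 0.108), shScr library 2 (0.0976), shPkm1 library 1 (0.0570) or shPkm2 library 2 (0.356).

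**Figure D3:**
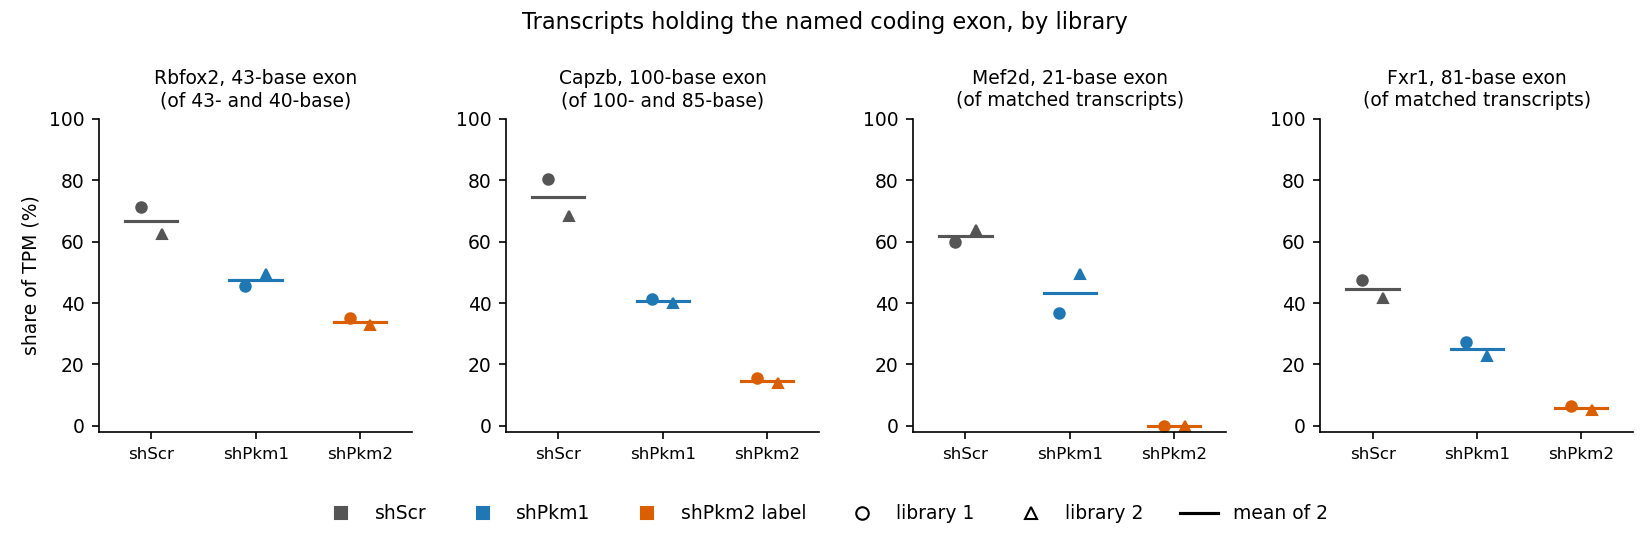
Share of TPM (%) of curated transcripts holding the named coding exon, by group; circles and triangles are libraries 1 and 2, bars the mean of 2. Among the transcripts compared, shScr was highest and the libraries labelled shPkm2 lowest in all 4 genes, of which Capzb, Mef2d and Fxr1 are shown because their shares differed, for Rbfox2 at 71.1% and 62.3% against 35.1% and 32.7%.

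Rbm24 (chromosome 13, 46418102-46431099) and Rbm38 (chromosome 2, 173021891-173034734) are related genes known to promote muscle differentiation; Rbm24 drives inclusion of many muscle exons and Rbm38 also stabilizes p21 mRNA. Rbm38 fell in both hairpin groups, whereas Rbm24 passed the test against shScr in shPkm2 only; the difference between both genes was not tested. Rbm24 held 936 and 566 counts in shScr, 616 and 615 in shPkm1 and 3 and 19 in shPkm2. In scaled CPM it stood at 59.3 and 32.0, 32.8 and 31.1, and 0.141 and 0.907. The shPkm1 and shScr libraries overlapped, and shPkm2 lay far below both.

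Rbm24 was 86.2-fold lower in shPkm2 than in shScr (log2 fold change -6.43, SE 0.40, edgeR adjusted p = 1.31e-08) and 60.5-fold lower than in shPkm1 (-5.92, SE 0.41, adjusted p = 6.65e-08). With each library left out in turn, the values ran from -8.26 to -5.63 and from -7.76 to -5.14, the lowest without shPkm2 library 2 and the highest without library 1. In shPkm1 against shScr the log2 fold change was -0.51 (95% interval -1.02 to 0.00, adjusted p = 0.0764). It rested on shScr library 1: without that library it was 0.00, and without shScr library 2 it was -0.89 (adjusted p = 1.63e-08). It also passed the threshold narrowly without either shPkm2 library (adjusted p = 0.0489 and 0.0478) and when only the groups compared were fitted (adjusted p = 0.0440).

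Rbm38 held 4618 and 2960 counts in shScr, 751 and 879 in shPkm1 and 494 and 539 in shPkm2. The 3 groups did not overlap. It was 5.44-fold lower in shPkm1 (log2 fold change -2.44, SE 0.20, adjusted p = 3.33e-07), 9.38-fold lower in shPkm2 (-3.23, SE 0.21, adjusted p = 1.66e-08) and 1.72-fold lower in shPkm2 than in shPkm1 (-0.79, SE 0.20, adjusted p = 0.00534). With each library left out, the first value lay between -2.79 and -1.99 and the second between -3.58 and -2.77. The direct contrast lost its call without shPkm1 library 2 (adjusted p = 0.0616) and with curated transcripts alone (0.0862). Its main transcript NM_019547.2 carried 89.3% to 95.6% of the gene's TPM in every library.

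The share of Rbm24 in the summed TPM of the pair was 9.87% and 9.34% in shScr, 30.7% and 27.4% in shPkm1 and 0.342% and 1.86% in shPkm2. These shares compare genes within a library and do not depend on library scaling. The 2 shScr libraries gave nearly the same share although both genes were higher in library 1. The higher share in shPkm1 came with Rbm24 at 19.1 and 17.1 TPM against 24.1 and 14.7 in shScr, while Rbm38 went from 220.3 and 142.6 TPM to 43.1 and 45.5. In the same libraries the muscle marker Ckm, the muscle creatine kinase, stood at 2284 and 1451 TPM in shScr, 317 and 391 in shPkm1 and 10.3 and 7.95 in shPkm2, and Myog, the differentiation factor myogenin, at 2126 and 2051, 1430 and 1437, and 67.2 and 73.5. Mki67, a gene expressed in cycling cells, stood at 9.37 and 12.6, 40.03 and 38.3, and 125.9 and 97.9 TPM. The part of the degree of differentiation in the regulator levels was not tested.

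Muscleblind genes moved in the opposite direction to Rbfox1 and Rbm38. Mbnl1 (chromosome 3, 60472559-60629750) is the main muscleblind of muscle, the one sequestered by repeat RNA in myotonic dystrophy. It held 863 and 938 counts in shScr, 2735 and 2424 in shPkm1 and 3365 and 3002 in shPkm2. Every library of the hairpin groups lay above both shScr libraries. It was 2.49-fold higher in shPkm1 (log2 fold change 1.32, SE 0.11, edgeR adjusted p = 4.69e-07) and 2.801-fold higher in shPkm2 (1.49, SE 0.11, adjusted p = 7.88e-08). Between shPkm2 and shPkm1 the libraries overlapped, and the difference of 0.17 had a 95% interval from -0.06 to 0.40 (adjusted p = 0.200); on library totals it was 0.30 and passed (adjusted p = 0.0434).

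Mbnl2 (chromosome 14, 120275652-120431698) shares many targets with Mbnl1. Its counts were 724 and 825 in shScr, 2315 and 2074 in shPkm1 and 1896 and 1812 in shPkm2. Here shPkm1 was the highest group. The gene was 2.47-fold higher in shPkm1 than in shScr (log2 fold change 1.30, SE 0.11, adjusted p = 3.30e-07) and 1.90-fold higher in shPkm2 (0.93, SE 0.11, adjusted p = 4.49e-06). The direct contrast of -0.38 passed (adjusted p = 0.00710), but not without shPkm1 library 1 (-0.27, adjusted p = 0.106), without shPkm2 library 2 (adjusted p = 0.0611), on library totals or on log2 TPM.

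Mbnl3 (chromosome X, 51113494-51205990) is the muscleblind of proliferating precursors and is known to hold back muscle differentiation. It was the rarest of the 3, with 20 and 42 counts in shScr, 109 and 107 in shPkm1 and 251 and 227 in shPkm2. The groups formed 3 separate steps. It was 3.03-fold higher in shPkm1 (log2 fold change 1.60, SE 0.25, adjusted p = 1.04e-04), 6.12-fold higher in shPkm2 (2.61, SE 0.23, adjusted p = 4.44e-07) and 2.02-fold higher in shPkm2 than in shPkm1 (1.01, SE 0.20, adjusted p = 6.92e-04). The size of the first contrast rested partly on the low shScr counts: without a shScr library it ran from 1.24 to 2.14. In the direct contrast the curated transcripts alone gave 1.27 (adjusted p = 0.0519).

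Summed over the family, Mbnl TPM was 27.3 and 31.0 in shScr, 105.2 and 84.6 in shPkm1 and 101.8 and 89.6 in shPkm2. Within it, Mbnl1 and Mbnl2 took near-equal parts in shScr (50.1% and 49.1% for Mbnl1) and in shPkm1 (50.02% and 49.8%), while in shPkm2 Mbnl1 took 59.1% and 57.5%. Mbnl3 took at most 2.57% in any library. Among single rows, the curated Mbnl1 transcript NM_020007.4 passed as higher in both contrasts with shScr (log2 fold change 1.39 and 1.40, adjusted p = 0.0138 and 0.00796). It held 147 and 165 counts in shScr and between 431 and 555 in the other libraries, and its share of Mbnl1 TPM stayed between 13.9% and 16.2%. The predicted row XM_017319668.1 rose more (3.22 and 2.56, adjusted p = 0.00960 and 0.00831), from 25 and 22 counts to 262 and 234 in shPkm1 and 193 and 152 in shPkm2. For Mbnl2, NM_207515.2 rose by 1.67 and 0.95 (adjusted p = 0.00820 and 0.0163), and no Mbnl transcript had a usage call. Each of these 6 calls was lost when some single library was left out. In shPkm1 against shScr, NM_020007.4 lost its call without any one of the 4 libraries (adjusted p = 0.0513 to 0.0957), XM_017319668.1 without either shPkm1 library (0.0790 and 0.0618) and NM_207515.2 likewise (0.0729 and 0.0567). In shPkm2 against shScr, NM_020007.4 and XM_017319668.1 lost theirs without shPkm2 library 1 (0.0560 and 0.0538). NM_207515.2 lost its shPkm2 call without shScr library 1 (0.0590), shScr library 2 (0.0719) or shPkm2 library 2 (0.0649). The curated Mbnl2 transcript with a 54-base exon (chr14:120395712-120395765, plus strand) that carries part of a nuclear localization signal, NM_175341.4, had 162 and 26 counts in shPkm1 and 0 in the other 4 libraries, a spread too wide to read.

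Celf proteins counteract Mbnl at many exons and are known to decline as muscle matures. Celf1 (chromosome 2, 90940259-91019497) held 1656 and 1648 counts in shScr, 1613 and 1599 in shPkm1 and 2059 and 1936 in shPkm2. After scaling it stood at 105.0 and 93.1, 85.9 and 80.8, and 96.9 and 92.4 CPM. It was called 1.19-fold lower in shPkm1 (log2 fold change -0.25, adjusted p = 0.0445), a call that 13 of the other settings lost, with the opposite sign on log2(TPM + 1) (0.16) and with curated transcripts alone (0.08). In shPkm2 against shScr the value was -0.06 (95% interval -0.28 to 0.15), again with the opposite sign on library totals (0.26, adjusted p = 0.0347) and on log2(TPM + 1) (0.48, adjusted p = 0.00322). The direction for Celf1 against shScr thus differed between scales. Less the median of all genes, log2(TPM + 1) gave -0.16 in shPkm1 and 0.11 in shPkm2. In shPkm2 against shPkm1 the value was 0.18 (adjusted p = 0.140). It passed as higher on library totals (0.31, adjusted p = 0.0195) and on log2(TPM + 1) (0.32, adjusted p = 0.0415), while curated transcripts alone gave -0.08 (adjusted p = 0.729).

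Celf2 (chromosome 2, 6539694-7396341) is a close relative that is abundant in heart, brain and blood cells. It held 1482 and 1783 counts in shScr, 1523 and 1423 in shPkm1 and 1345 and 1215 in shPkm2, which after scaling were 93.9 and 100.7, 81.1 and 71.9, and 63.3 and 58.0 CPM. It was called 1.27-fold lower in shPkm1 (log2 fold change -0.35, adjusted p = 0.00957) and 1.61-fold lower in shPkm2 (-0.68, adjusted p = 5.72e-05). On log2(TPM + 1) limma gave 0.08 in shPkm1, the other direction, and -0.12 in shPkm2 (adjusted p = 0.671 and 0.489). Less the median of all genes on that scale, these values were -0.24 and -0.49. On library totals the edgeR call in shPkm1 was lost (-0.15, adjusted p = 0.267). Curated transcripts alone gave 0.01 and -0.15, and without shPkm1 library 2 the shPkm1 call was lost (adjusted p = 0.123). Between the hairpins Celf2 was 1.26-fold lower in shPkm2 than in shPkm1 (-0.34, edgeR adjusted p = 0.0146). That call was lost on library totals (-0.21, adjusted p = 0.149) and with curated transcripts alone (-0.16, adjusted p = 0.375). It was also lost with limma on log2(TPM + 1) (-0.20, adjusted p = 0.299). Leaving out single libraries gave -0.42 to -0.26.

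The ratio of summed Mbnl to summed Celf TPM is free of library scaling. It was 0.748 and 0.790 in shScr, 2.40 and 2.16 in shPkm1 and 2.12 and 2.07 in shPkm2, so Celf transcripts outnumbered Mbnl transcripts in both control libraries and Mbnl outnumbered Celf in the other 4. Celf TPM itself lay between 36.5 and 48.1 in all libraries. These values are RNA levels; protein was not measured.

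**Figure D4:**
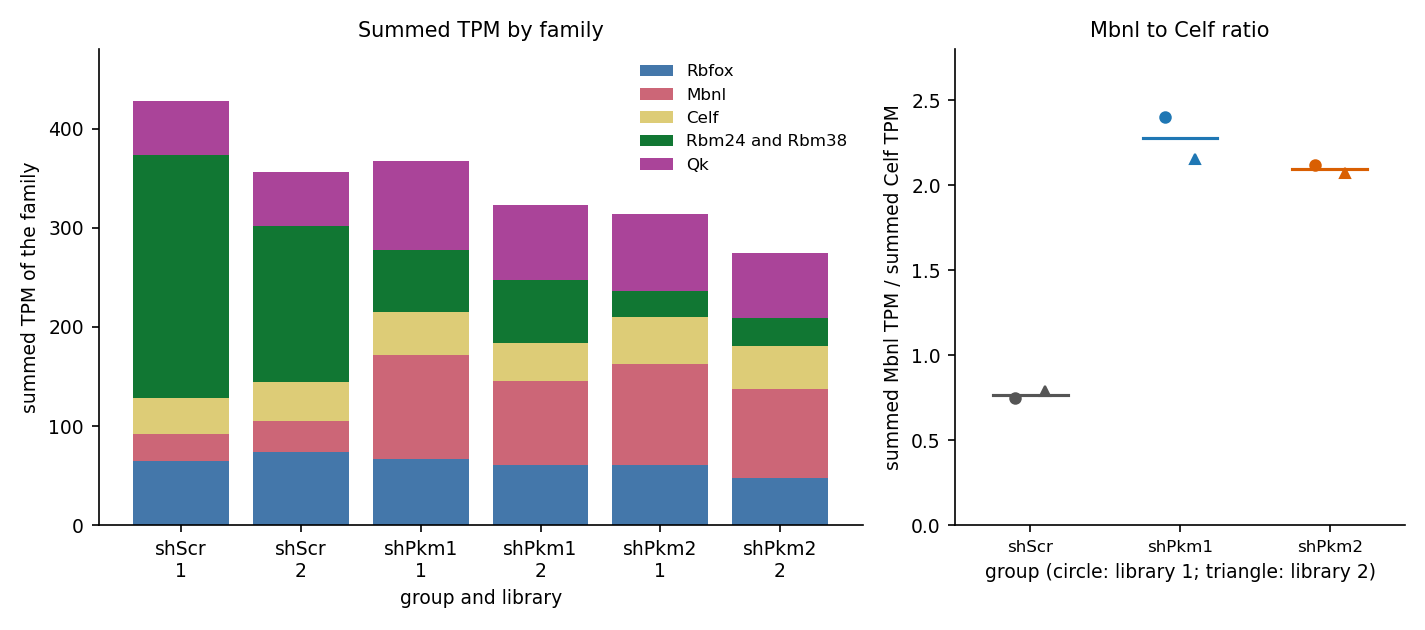
Left, summed TPM of each family in every library as stacked bars from 0. Right, ratio of summed Mbnl to summed Celf TPM by group (linear axis from 0; circles and triangles are libraries 1 and 2, bars the mean of 2): 0.748 and 0.790 in shScr against 2.07 to 2.40 in the other libraries.

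Quaking (chromosome 17, 10206471-10319361) did not pass the test against shScr as a gene total, while single transcripts did. The gene held 3228 and 3217 counts in shScr, 4401 and 4129 in shPkm1 and 4090 and 3616 in shPkm2. Scaled CPM were 204.6 and 181.7, 234.3 and 208.8, and 192.5 and 172.5. The log2 fold change was 0.20 in shPkm1 (95% interval -0.04 to 0.43, adjusted p = 0.127) and -0.08 in shPkm2 (-0.32 to 0.15, adjusted p = 0.519). On log2(TPM + 1) limma gave both as higher, by 0.58 and 0.37 (adjusted p = 0.00118 and 0.0148). The sign for shPkm2 thus differed between the scales as they stand. Less the median of all genes on each scale, log2(TPM + 1) gave 0.27 and 0.008. The scaled counts gave 0.20 and -0.09 on that footing. The shPkm1 value also passed on library totals (adjusted p = 0.00711) and without shScr library 1 (0.29, adjusted p = 0.0222). The direct contrast of -0.28 (adjusted p = 0.0438) lost its call when any one library of either group was left out.

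The curated Qk-5 transcript, NM_001159517.1, rose from 1072 and 1321 counts in shScr to 2369 and 2457 in shPkm1 and 2712 and 2469 in shPkm2. Its log2 fold change was 0.84 (SE 0.09, adjusted p = 0.0105) and 0.81 (SE 0.09, adjusted p = 0.00624) in the transcript fit. It had no usage call in either contrast (adjusted p = 0.607 and 0.182). The predicted transcript XM_006523300.2 went the other way, from 1416 and 1065 counts to 1042 and 864 in shPkm1 and 546 and 426 in shPkm2. It fell by 1.67 (SE 0.25, adjusted p = 0.0154) in shPkm2 against shScr and was also called for usage (adjusted p = 0.0131). The shPkm1 call of NM_001159517.1 was lost without either shPkm1 library (adjusted p = 0.0894 and 0.0704), its shPkm2 call without shPkm2 library 1 (0.0510), and the call of XM_006523300.2 without either shPkm2 library (0.0686 and 0.0910). The usage call was lost without shScr library 1 (adjusted p = 0.135), shPkm2 library 1 (0.246) or shPkm2 library 2 (0.409). As a share of Qk TPM, NM_001159517.1 took 34.5% and 42.95% in shScr, 56.4% and 61.8% in shPkm1 and 68.9% and 71.0% in shPkm2, and XM_006523300.2 took 46.7% and 35.5%, 25.4% and 22.3%, and 14.2% and 12.5%. Neither share overlapped between groups. The Qk-6 transcript NM_001159516.1 held 370 and 513, 470 and 404, and 452 and 404 counts, and the Qk-7 transcript NM_021881.2 held 299 and 285, 491 and 355, and 258 and 251, with no call for either. Which tail XM_006523300.2 carries was not determined here, so the shares above do not show a change of tail. With curated transcripts alone Qk was higher in both groups (0.60 and 0.46, adjusted p = 0.00439 and 0.00870).

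**Figure D5:**
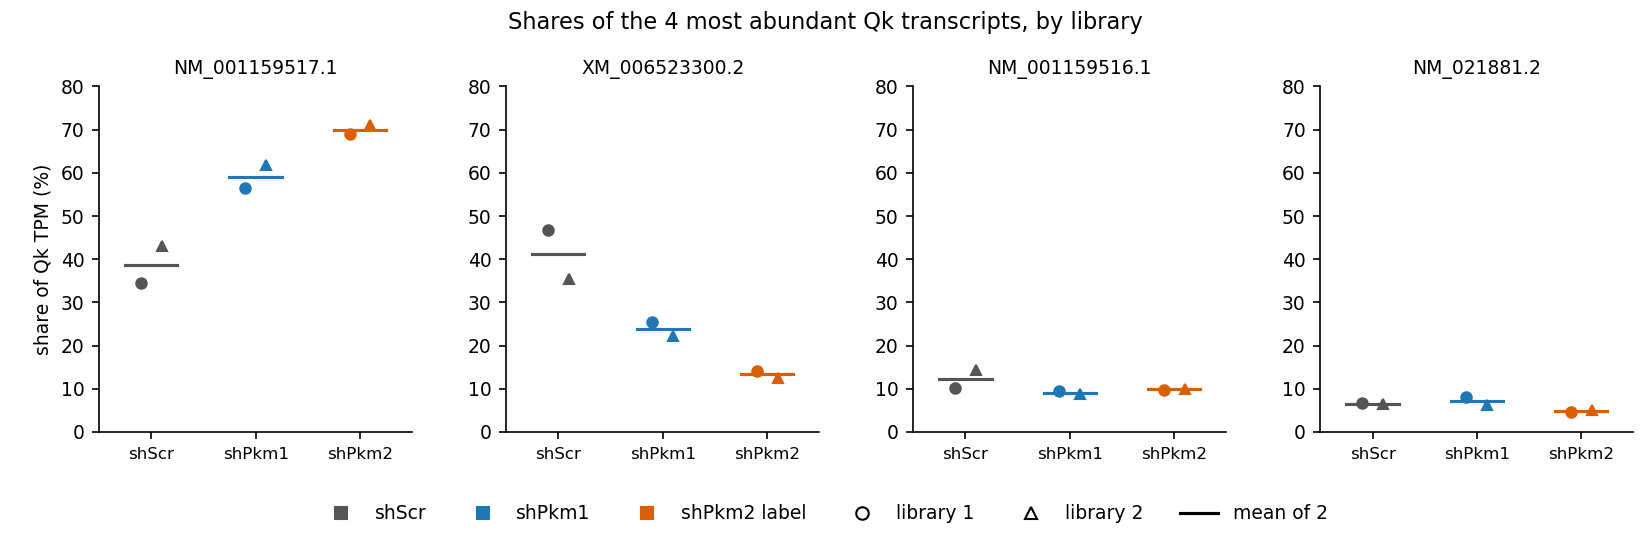
Share of Qk TPM (%) taken by each of the 4 most abundant Qk transcripts, by group; circles and triangles are libraries 1 and 2, bars the mean of 2. NM_001159517.1 rose from 34.5% and 42.95% in shScr to 68.9% and 71.0% in shPkm2, while XM_006523300.2 fell from 46.7% and 35.5% to 14.2% and 12.5%.

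Across all rows of the 10 genes, 94 transcripts were tested. In shPkm1 against shScr 8 passed as higher and 3 as lower (11.7% of them, against 10.8% of all transcripts, 5.47% higher and 5.36% lower), in shPkm2 against shScr 12 and 11 (24.5% against 17.2%, 7.91% higher and 9.32% lower), and in the direct contrast 0 and 4 (4.26% against 7.91%, 2.87% higher and 5.04% lower). Usage calls were 0, 2 and 0 of 93 rows, against 0.411%, 1.10% and 0.526% of all rows; at an unadjusted p under 0.05 the counts were 15, 19 and 11, where 7.01%, 8.37% and 6.58% of all 28695 rows passed, and no other usage tool was run. Estimates for single transcripts were noisy: leaving out 1 library at a time left 0 to 6, 7 to 15 and 0 to 3 calls, 0 in shPkm1 against shScr without either shPkm1 library, and the usage calls 0 to 2 in shPkm2 against shScr. Of the 94, 11 had at least 50 counts in one library and 0 in the other of the same group, 4 of them Celf1 rows, against 8.31% of all transcripts and 5 of 12643 genes. The Celf1 row NM_001244903.1, for instance, held 133 counts in shScr library 2, 585 in shPkm1 library 1 and 0 in the other 4 libraries. None of the 10 gene totals disagreed in that way.

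Levels can be ranked per length by TPM. In shScr, Rbm38 was the most abundant at 181 ± 55 TPM (SD, n = 2) and stood apart from Rbfox2 (61.1 ± 9.5) and Qk (54.9 ± 0.1), which overlapped. Celf1, Rbm24, Celf2, Mbnl1 and Mbnl2 followed between 22.1 and 14.4 TPM, each overlapping with the next, and then Rbfox1 (8.24 ± 2.99) and Mbnl3 (0.29 ± 0.14), which did not. In shPkm1 Qk led at 82.9 ± 9.6 TPM, followed by Rbfox2, and Mbnl1, Mbnl2 and Rbm38 overlapped between 47.4 and 44.3. In shPkm2 Qk led at 71.7 ± 8.2 TPM; Mbnl1 and Rbfox2 overlapped at 55.9 and 54.1, and Rbm24 and Rbfox1 were last at 0.305 ± 0.304 and 0.130 ± 0.042. Rbm38 took 51.5% and 40.02% of the summed TPM of all 10 in shScr, 11.7% and 14.1% in shPkm1 and 8.36% and 10.0% in shPkm2. The 3 Mbnl genes together took 6.38% and 8.70%, 28.6% and 26.2%, and 32.4% and 32.6%.

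For each regulator with a call against shScr, the 2 genes of most similar profile were taken among 10953 genes whose mean reached 50 counts, by the Euclidean distance of log2 CPM centred on the mean of the 6 libraries. Rbfox2 and Celf2 were among each other's nearest (distance 0.128), beside LTO1 and Ube2h. Mbnl1 was nearest to Fmnl2 (0.0941) and Pik3c2a (0.109), and Mbnl2 to Rpgrip1l (0.109) and Prkd3 (0.154). Mbnl3 was nearest to Clmp (0.254) and Il33 (0.296), and Celf1 to Eif2s3x (0.0823) and Fam210a (0.0875). Rbfox1 was nearest to Fras1 (0.474) and Hephl1 (0.494), and Rbm38 to Tspan32 (0.293) and Dbndd1 (0.338). The genes nearest to Rbm24, Prkag3 and Tmem182, lay at 1.24 and 1.38. Its unlike libraries, at 3 and 19 counts in shPkm2 and 936 and 566 in shScr, enter these distances. Distances grow with the size of the change, and 6 libraries in 3 groups make many profiles alike.

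Other regulators of splicing, 44 of a list of 52, were tested in the same fit. In shPkm1 against shScr 22 were higher and 6 lower (median log2 fold change 0.28, against 0.00 for all genes). In shPkm2 against shScr 36 were higher and 3 lower (median 0.71, against 0.01), and in the direct contrast 28 and 4 (median 0.41). The shares called were 63.6%, 88.6% and 72.7%, against 63.1%, 68.0% and 53.0% of all genes. On log2(TPM + 1) the splits were 32 higher and 2 lower, 39 and 2, and 27 and 3. The median of all genes on that scale was itself 0.31, 0.36 and 0.06. The share of all genes called on it is not given here, so these splits are not set against a background. The 10 regulators described above had medians of -0.30, -0.38 and -0.32, over ranges of -2.90 to 1.60, -6.43 to 2.61 and -5.92 to 1.01. Those medians fall among Rbfox2, Celf1, Celf2 and Qk, whose small changes differed in sign or call between scales. They therefore describe no shared direction of the 10. Among the others, Ptbp1, the polypyrimidine tract protein that represses muscle and neural exons and acts on Pkm itself, rose from 3097 and 3888 counts in shScr to 5338 and 5996 in shPkm1 and 13440 and 12695 in shPkm2 (2.98-fold in shPkm2, adjusted p = 3.07e-08). Its paralog Ptbp3 rose 2.25-fold and 3.30-fold, and Celf4, a rare Celf gene here with 7 and 6 counts in shScr, rose to 77 and 67 and to 96 and 83. Srpk3, the muscle kinase of SR proteins, fell from 753 and 653 counts to 184 and 189 in shPkm1 and 1 and 5 in shPkm2 (log2 fold change -2.13 and -8.15, adjusted p = 1.49e-07 and 6.42e-11). Rbm20, the regulator of titin splicing, fell by 0.70 and 0.67 on the log2 scale in the scaled counts. On log2(TPM + 1) limma gave -0.28 and -0.22 for it, neither past the threshold (adjusted p = 0.107 and 0.198). Rbm4 fell by 1.04 in shPkm2. Khdrbs3 differed between the hairpins, at 197 and 253 counts in shScr, 60 and 77 in shPkm1 and 447 and 441 in shPkm2. Clk1, a kinase of SR proteins, was highest in shPkm1, 2.60-fold above shScr, and Rbpms2 was 1.90-fold higher in shPkm2 than in shPkm1.

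Exons that muscle is known to switch were then followed in 28 genes with more than 1 tested transcript. Usage calls were found in 8 of them in shPkm1 against shScr, 13 in shPkm2 against shScr and 13 in the direct contrast, against 1.32%, 3.13% and 1.67% of 7704 genes. In shPkm1 against shScr 5 were left without shScr library 1 or either shPkm1 library. Without 1 library of either group, 5 to 7 genes passed in the direct contrast. The 28 genes hold 234 tested transcripts and the 7704 genes 28695, so a listed gene had more chances of a call. By transcript, 14, 32 and 22 of the 234 were called, against 0.411%, 1.10% and 0.526% of the 28695. In simulated data the usage test made more false calls than its adjusted p allows. The list of 31 genes includes Pkm, the target of the hairpins, which had no usage call. The exons below are shown because they are known muscle exons whose share differed between groups. In Capzb, the beta subunit of the actin capping protein, NM_001037761.2 ends in a 100-base coding exon of the sarcomeric beta1 form (chr4:139288861-139288960, plus strand) and NM_009798.4 in the 85-base exon of beta2 (chr4:139291003-139291087). The muscle forms of Mef2d and Fxr1 hold a 21-base exon (chr3:88161781-88161801) and an 81-base exon (chr3:34064974-34065054), both on the plus strand, found here in NM_001310587.1 and NM_001113188.1.
Capzb 100-base exon: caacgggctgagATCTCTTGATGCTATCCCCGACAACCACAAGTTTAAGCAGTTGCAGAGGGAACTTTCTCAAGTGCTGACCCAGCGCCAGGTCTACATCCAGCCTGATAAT
Capzb 85-base exon: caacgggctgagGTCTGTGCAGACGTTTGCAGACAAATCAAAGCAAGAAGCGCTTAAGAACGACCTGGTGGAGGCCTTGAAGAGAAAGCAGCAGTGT
Mef2d 21-base exon: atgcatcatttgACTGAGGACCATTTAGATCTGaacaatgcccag
Fxr1 81-base exon: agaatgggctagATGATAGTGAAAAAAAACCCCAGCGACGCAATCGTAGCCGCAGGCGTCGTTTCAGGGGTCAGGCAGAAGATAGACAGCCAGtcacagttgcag

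The 100-base exon took 80.3% and 68.5% of the TPM of both Capzb forms in shScr, 41.4% and 40.1% in shPkm1 and 15.4% and 14.0% in shPkm2. NM_009798.4 was called for usage in shPkm1 (adjusted p = 0.0198) and in shPkm2 against shScr (adjusted p = 6.38e-04). The first of these calls held without shScr library 2 and was lost without any other single library (adjusted p = 0.108 to 0.407). The 81-base exon of Fxr1 took 47.4% and 41.7% of the matched transcripts in shScr, 27.4% and 22.7% in shPkm1 and 6.39% and 5.31% in shPkm2. The 21-base exon of Mef2d took 59.7% and 63.9% of the matched transcripts in shScr, 36.7% and 49.5% in shPkm1 and was listed at 0 in shPkm2. Those transcripts made up 49.7% to 64.5% of Mef2d TPM in shScr, 64.9% to 74.1% in shPkm1 and 75.6% to 82.6% in shPkm2. As a share of all Mef2d TPM, NM_001310587.1 took 29.7% and 41.3% in shScr and 23.8% and 36.7% in shPkm1, so these groups overlapped on that measure. In shPkm2, NM_133665.4, which lacks it, took 67.1% and 57.9% of Mef2d TPM after 0 in shScr. In Tpm1, the alpha-tropomyosin gene, NM_001164248.1 went from 76.0% and 69.9% of the gene's TPM to 42.4% and 45.9% and then 8.50% and 8.78%, and NM_024427.4 from 11.5% and 19.8% to 44.3% and 41.5% and then 70.4% and 70.3%. Other genes named by the rule were Enah, Pdlim5, Ldb3 and Atp5c1: the Enah row XM_006496651.3 went from 11.3% and 9.74% to 37.9% and 37.7% in shPkm1, Pdlim5 NM_019808.3 from 0% and 0.404% to 59.5% and 62.4% in shPkm2, Ldb3 NM_001039075.2 from 41.3% and 34.1% in shPkm1 to 5.06% and 0% in shPkm2, and Atp5c1 NM_020615.4 from 29.2% and 27.7% in shPkm1 to 63.7% and 60.5% in shPkm2. The usage calls of Enah in shPkm1 against shScr and of Ldb3 and Atp5c1 in the direct contrast were each lost without any single library of either group (adjusted p = 0.0964 to 0.426, 0.0686 to 0.580 and 0.171 to 0.330). Whether any of the 10 regulators acts on these exons here was not tested.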

How the data were processed

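The deposited table holds 57920 RefSeq transcripts. Per the file headers, the authors gave for each an estimated count, a TPM value and an FPKM value per library; the FPKM values and 9 columns of the authors' group means were not used. Per the submitters' processing notes, HISAT, StringTie, Bowtie, RSEM, DESeq2 and the build mm10 were used, with no versions given. Counts were summed per NCBI gene and rounded. Symbols matched 17445 genes; the other 113 held at most 0.148% of a library. Multi-transcript genes rely on the authors' estimated split of reads.

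Scaled CPM are counts per TMM-scaled library size. The main test was edgeR 4.0.16 (R 4.3.3): filterByExpr (minimum count 10, total 15), TMM scaling, 1 model over all 6 libraries, quasi-likelihood F-test, two-sided, Benjamini-Hochberg over 12643 genes. The same fit ran on 33433 transcripts, and diffSpliceDGE tested usage. The spread (biological coefficient of variation) was 0.0851 for genes and 0.793 for transcripts. Tests were checked on simulated data, in which the transcript fits missed many changes and the usage test made more false calls than its adjusted p allows.

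The rule for the members uses names and no measured value, but members, lists, named genes and alternatives were chosen with earlier results of these data known. Named were all members, Pkm, Myod1, Myog, Ckm and Mki67, up to 3 largest rises and 3 largest falls among other regulators (called, averaging 50 counts or more), and up to 4 muscle exon genes per contrast by change in TPM share. Member rows with a mean of at least 10 counts could be described singly. Alternatives were other scalings and filters, DESeq2 1.42.0, limma 3.58.1 on log2 TPM, curated transcripts alone, the replicate block and leaving out each library. Coding exons came from GENCODE transcripts of GRCm38 matched to RefSeq transcripts, gene positions from RefSeq GRCm38.p6. Ptprc was not analysed here.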

Additional observations from a re-analysis of the deposited data

How the results depend on the processing

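With 2 libraries a group, low counts limited the precision for Rbfox1 and Rbm24 in shPkm2 and Mbnl3 in shScr. Rbm24 was also uneven in shPkm2, at 3 and 19 counts, and the part of depth was not tested. Single transcripts were limited by their spread. The calls for Rbfox1, Rbm38, Mbnl1, Mbnl2 and Mbnl3 against shScr, and for Rbm24 in shPkm2, kept direction and threshold in every alternative run. The cause of the changes below was not tested, apart from fewer rows in the curated table and fewer libraries where one was left out.

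Members called in shPkm2 against shPkm1 numbered 8, but 3 with curated transcripts alone and 5 on log2(TPM + 1) or log2(TPM + 0.1). The shares of all genes called under the settings of this section are not given here. The counts thus do not show whether members lost calls more often than other genes. Leaving out single libraries gave 5 to 9 members in shPkm1 against shScr, 8 in shPkm2 against shScr and 4 to 8 in the direct contrast. For member transcripts it gave 0 to 6, 7 to 15 and 0 to 3, for their usage 0 to 2 in shPkm2 against shScr and 0 to 1 in the direct contrast, and for muscle exon genes 5 to 7 in shPkm1 against shScr and 5 to 12 in the direct contrast. Member transcripts called in shPkm1 against shScr fell from 11 to 7 without the filter on low counts, and usage calls in shPkm2 against shScr from 2 to 0 with curated transcripts alone.

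Replicate numbers did not pair the samples: deviations of same-numbered libraries correlated at -0.0256, 0.0418 and 0.0527. With the replicate block, member transcript calls were 5 and 13 against shScr and 2 in the direct contrast, member usage calls 0 in shPkm2 against shScr and muscle exon genes 5 in shPkm1 against shScr. The block changed no call of a member gene, but single transcripts lost calls in shPkm2 against shScr, among them Mbnl2 NM_207515.2 and Rbfox2 NM_001110829.2 (adjusted p = 0.0501 and 0.0680).

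Some directions turned, and for Celf1 and Qk in shPkm2 against shScr some of these values passed the threshold. The values below include the median of all genes on each scale. In shPkm1 and shPkm2 against shScr that median was 0.31 and 0.36 on log2(TPM + 1). It was 0.38 and 0.45 on log2(TPM + 0.1), and 0.19 and 0.33 on library totals. On log2(TPM + 1) and log2(TPM + 0.1), shPkm1 against shScr gave 0.0288 and 0.0293 for Rbfox2, 0.158 and 0.164 for Celf1 and 0.0779 and 0.0822 for Celf2, and shPkm2 against shScr gave 0.48 and 0.50 for Celf1 (adjusted p = 0.00322 and 0.00302) and 0.37 and 0.38 for Qk (0.0148 for both). On library totals the latter were 0.26 for Celf1 and 0.25 for Qk (adjusted p = 0.0347 and 0.0623). Curated transcripts alone gave 0.0764 for Celf1 and 0.0128 for Celf2 in shPkm1 against shScr, -0.0806 for Celf1 in the direct contrast and 0.46 for Qk in shPkm2 against shScr (adjusted p = 0.00870). Without single libraries, shPkm2 against shScr ran from -0.147 to 0.0240 for Celf1 and from -0.162 to 0.0065 for Qk. In the direct contrast, library totals gave 0.102 for Qk NM_001159517.1 and 0.0892 for Rbfox2 NM_001110830.2, and log2(TPM + 1) gave 0.0333 and 0.0111. Without single libraries the direct contrast ran from -0.0849 to 0.0167 for Qk NM_001159517.1, -0.23 to 0.11 for Rbfox2 NM_001110830.2, -0.12 to 0.13 for Mbnl1 NM_020007.4 and -0.17 to 0.21 for Mbnl2 XM_006518376.3.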
